A study of Mus musculus with 5 samples.

Results

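Snai1, Snai2, Twist1, Zeb1, Zeb2, Cdh1, Epcam, Cdh2 and Vim are 9 genes of the switch between epithelial and mesenchymal cell states. They were taken by their RefSeq symbol from 21000 protein-coding mouse genes. The rule uses no measured value, but the 9 genes were chosen with earlier results of these data known. The measurements are DNaseI hypersensitive sites (DHSs), stretches of chromatin accessible enough for the nuclease DNaseI to cut, listed at 5 stages of blood cell differentiation. A DHS was assigned to a gene if it came within 1 kb of any of its annotated transcription start sites (TSSs), here called a promoter site. It was also assigned if it lay inside the gene or up to 100 kb from its TSS and the gene was the nearest protein-coding one. The 9 genes held 142 of the 135173 listed sites, which merged across stages into 80 of 68846 regions.

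All cells came from 1 line of mouse ES (embryonic stem) cells, strain 129, differentiated in vitro. The line carries GFP as a reporter of Brachyury (Bry), a gene of early mesoderm. Mesoderm (MES) was sorted as Bry:GFP+ Flk1- cells and hemangioblasts (HB), the common precursors of endothelium and blood, as Bry:GFP+ Flk1+ cells. Hemogenic endothelium (HE), the endothelium from which blood cells bud, was sorted as Tie2+ cKit+ CD41- cells, also labelled Bry:GFP+. Hematopoietic progenitors (HP) were CD41+ cells, and macrophages (MAC) were CD11b+ cells grown on from CD41+ cells. The ES cells had been maintained on mouse embryonic fibroblasts, and the labels name no further mutation or treatment for any stage. Each stage was 1 list, so n = 1 and no difference between stages could be set against a spread between replicates or tested. The label of the MAC sample names a pair of replicates, for which 1 list was analysed.

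In an epithelial to mesenchymal transition, cells give up the adhesive junctions of an epithelial sheet and become motile. Zinc finger repressors of the Snail and Zeb families and the basic helix-loop-helix factor Twist1 drive the change, and they bind E-box sequences at epithelial genes such as Cdh1. Gastrulation, in which mesoderm leaves the epiblast, is its classical setting. Hemogenic endothelium later releases round blood progenitors from an adherent layer, in an endothelial to hematopoietic transition that likewise involves a loss of cell contacts.

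All positions are on GRCm38/mm10 as annotated by RefSeq. Snai1 lies at chr2:167538195-167542814 (plus strand), Snai2 at chr16:14705852-14709395 (plus strand) and Twist1 at chr12:33957671-33959831 (plus strand). Zeb1 spans chr18:5591327-5775468 (plus strand) and Zeb2 chr2:44983512-45117442 (minus strand). Cdh1 is found at chr8:106603350-106670247 (plus strand), Epcam at chr17:87635979-87651127 (plus strand), Cdh2 at chr18:16588877-16809246 (minus strand) and Vim at chr2:13574311-13582826 (plus strand). Distances below are from the 5′ end of the gene to the middle of a region, and negative distances lie upstream.

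The lists were unequal in length, holding from MES to MAC 21949, 24729, 33305, 17734 and 37456 sites, and they hold no heights or read counts. HP was the shortest list, and its library was the shallowest by the study's own read totals. The part of depth in sites missing from HP was not tested. When every list was reduced to its widest sites, as many as HP has, the genes with a promoter site numbered 8, 9, 7, 3 and 3 from MES to MAC, against 8, 9, 8, 3 and 3 with the full lists. This setting leaves the HP list as it is, so the HP count could not move. It cannot bring back sites that HP lacks. Absence therefore means that no site was listed, and the depth behind a single site is unknown. As a check of the labels, the marker genes of each stage had a promoter site in that stage for every marker examined (T, Mesp1, Eomes, Kdr, Tek, Kit, Cdh5, Itga2b, Itgam, Csf1r and Cd14). Tek and Cdh5 had one in HE only, and Itgam and Csf1r in MAC only, whereas Kdr had one in every stage. T had one in MES and HB, Mesp1 and Eomes in MES, HB and HE, and Itga2b in HE and HP. Kit had one in every stage but MAC, and Cd14 in every stage but MES. No marker examined was thus listed in MES, HB or HP alone.

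The promoter sequences of 5 of the 9 genes were matched in the RefSeq promoter table (GRCm38.p6). They are shown because these promoters ranged from a site in every stage to a site in MES and HB alone. The 250 bases before the gene start are given 5′ to 3′ on the strand of the gene. Capitals mark the E2-box CAGGTG or its reverse complement CACCTG, the core bound by Snail and Zeb repressors and by other E-box proteins.
Epcam promoter, chr17:87635729-87635978, plus strand: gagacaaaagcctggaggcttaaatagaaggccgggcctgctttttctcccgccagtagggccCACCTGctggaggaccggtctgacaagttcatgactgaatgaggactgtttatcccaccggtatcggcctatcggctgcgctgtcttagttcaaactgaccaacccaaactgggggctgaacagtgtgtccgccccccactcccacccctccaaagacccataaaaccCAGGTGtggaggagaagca
Snai1 promoter, chr2:167537945-167538194, plus strand: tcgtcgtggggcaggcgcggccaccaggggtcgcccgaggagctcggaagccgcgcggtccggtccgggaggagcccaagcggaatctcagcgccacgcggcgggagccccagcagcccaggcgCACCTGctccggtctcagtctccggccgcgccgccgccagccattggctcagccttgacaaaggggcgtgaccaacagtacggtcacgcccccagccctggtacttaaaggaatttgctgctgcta
Vim promoter, chr2:13574061-13574310, plus strand: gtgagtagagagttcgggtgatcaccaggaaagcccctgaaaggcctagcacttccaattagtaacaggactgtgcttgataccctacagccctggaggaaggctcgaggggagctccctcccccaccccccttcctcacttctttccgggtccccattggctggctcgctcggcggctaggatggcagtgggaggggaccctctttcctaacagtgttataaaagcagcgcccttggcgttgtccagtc
Twist1 promoter, chr12:33957421-33957670, plus strand: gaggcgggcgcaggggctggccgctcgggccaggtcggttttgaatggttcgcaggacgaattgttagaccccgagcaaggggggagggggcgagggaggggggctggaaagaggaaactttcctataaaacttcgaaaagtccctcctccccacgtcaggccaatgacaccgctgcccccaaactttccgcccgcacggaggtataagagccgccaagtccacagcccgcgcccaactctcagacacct
Zeb2 promoter, chr2:45117443-45117692, minus strand: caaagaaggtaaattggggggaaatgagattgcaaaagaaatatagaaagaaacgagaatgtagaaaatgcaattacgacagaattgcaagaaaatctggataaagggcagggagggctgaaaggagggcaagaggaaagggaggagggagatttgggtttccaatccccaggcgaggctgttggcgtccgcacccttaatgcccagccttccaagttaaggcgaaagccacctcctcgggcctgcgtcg

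Epcam, which encodes an epithelial adhesion molecule, had 2 E2-boxes in this stretch, the first beginning 187 and the second 19 bases before the gene start. Snai1 had 1, beginning 126 bases before its start. Over the whole promoter windows of 300 bases, which reach 50 bases past the start, the counts were the same. Twist1, Vim and each of the 4 Zeb2 promoters in the table had 0. Among all 32851 promoters of the table, 20.2% held the E2-box and 2.88% held it at least 2 times. The promoters of Snai1 and Twist1 were rich in G and C, at 70% and 66%, against a median of 52.7% over the table. A match of letters is a description and does not show binding.

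Epithelial and mesenchymal genes alike had promoter sites early, and 5 of the 9 genes, among them the epithelial Cdh1 and Epcam, had none after HE. Snai1, Snai2, Zeb2 and Vim had one in HP, MAC or both. A promoter site was listed for 8 of the 9 genes in MES, when 57.2% of all 21000 genes had one. The count was 9 in HB (58.9% of all genes) and 8 in HE (61.7%). It was 3 in HP (50.1%) and 3 in MAC (50.2%). The 9 genes thus stood above the general share in the first 3 stages and below it in the last 2. Snai1 and Vim were the 2 of 9 genes with a promoter site in all 5 stages, a property of 43.4% of all genes.

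**Figure D1:**
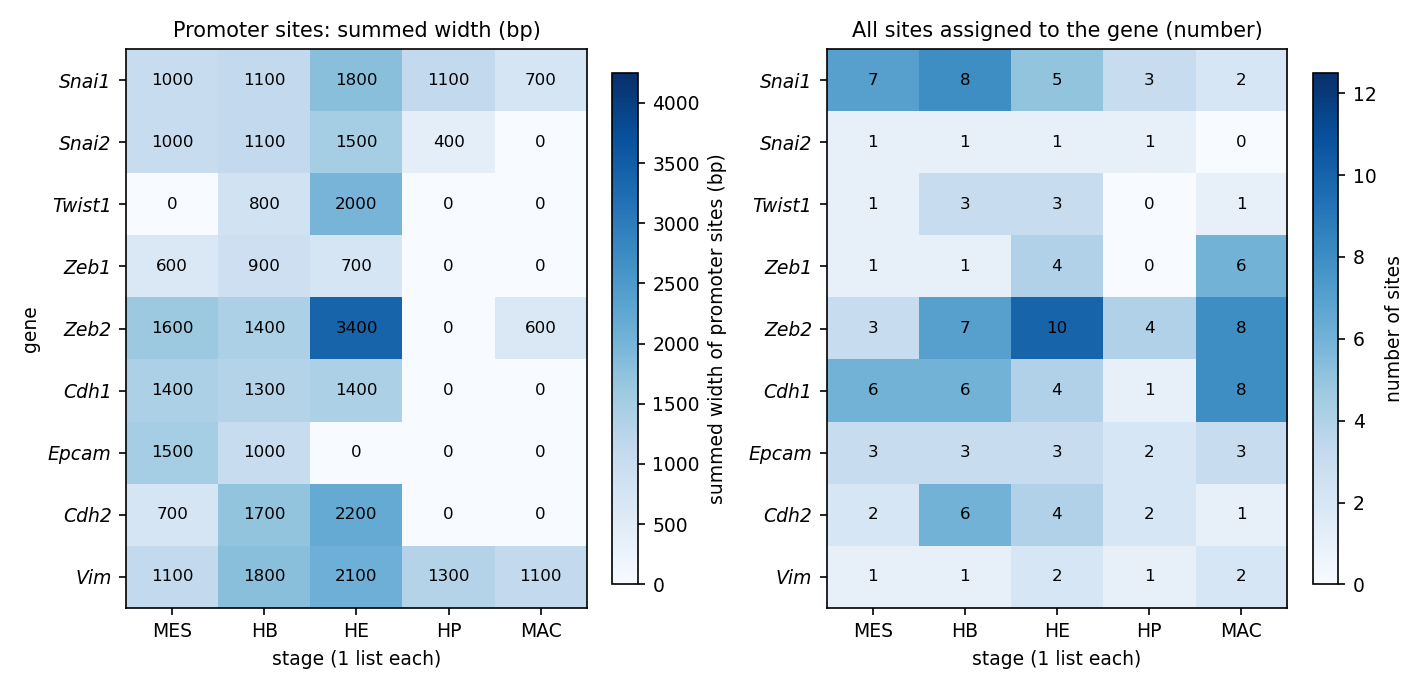
Left, summed width in bp of the promoter sites of each gene (rows) in each stage (columns), where 0 means that no site was listed. Right, number of all sites assigned to the gene. The HP and MAC columns of the left panel hold a value above 0 for 3 genes each, and the Zeb2 value of 3400 bp in HE is the sum of 3 sites.

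Snai1, a zinc finger repressor of Cdh1 and a marker of gastrulating mesoderm, had a site over its TSS at every stage. From MES to MAC its width was 1000, 1100, 1800, 1100 and 700 bp. The HE site was thus wider than the others, and 89.1% of HE sites were narrower. Width is the only measure of a site that the lists carry, and HE sites were wide in general, with a median of 1200 bp.

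Snai2, a paralog that acts on the same kind of E-box, had a single region, its promoter. From MES to HP the site measured 1000, 1100, 1500 and 400 bp. In HP it was among the narrow sites of the list, of which 3.82% were narrower. The nearest MAC site lay 266345 bp from the TSS.

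Twist1, a basic helix-loop-helix factor of mesoderm and neural crest, had promoter sites in HB and HE. The HB site of 800 bp covered the TSS. In HE, a site of 1700 bp ended 201 bp before the TSS and a second of 300 bp lay inside the gene at the edge of the 1 kb reach. The larger HE site and the HB site overlapped in part. MES had a site of 400 bp that ended 1426 bp from the TSS, beyond that reach. The nearest HP and MAC sites lay 527764 and 83005 bp away.

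Zeb1, a zinc finger and homeodomain repressor, had promoter sites in MES, HB and HE, of 600, 900 and 700 bp in turn. The HE width was low for that list, in which 9.85% of sites were narrower. In HP the nearest site was 186030 bp from any Zeb1 TSS. In MAC it was 9306 bp away.

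Zeb2, its paralog, was the gene among the 9 that regained a promoter site in MAC after none was listed in HP. In HE it had 3 promoter sites within reach of its alternative TSSs, of 1200, 300 and 1900 bp. MES had sites of 500 and 1100 bp, HB 1 site of 1400 bp and MAC 1 site of 600 bp. The nearest HP site lay 53978 bp from a Zeb2 TSS.

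Cdh1, encoding the epithelial cadherin E-cadherin, kept a promoter site of nearly the same width through the first 3 stages, at 1400, 1300 and 1400 bp. Relative to each list it became less wide, with 95.3% of sites narrower in MES, 78.8% in HB and 60.0% in HE. The Cdh1 promoter was thus listed at stages in which the Snail and Zeb genes also had promoter sites. Snai1 and Snai2 had one in HP too, and Snai1 and Zeb2 in MAC, where Cdh1 had none. In MAC the nearest site to the TSS was 4976 bp away, and in HP 41808 bp.

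Epcam lost its promoter site earlier than the others. Its promoter site was 1500 bp wide in MES and 1000 bp in HB, and 97.3% and 51.5% of the respective lists were narrower. From HE on none was listed. The nearest HE, HP and MAC sites lay 21656, 21888 and 10009 bp away. The MES site covered the TSS with both E2-boxes of the sequence above, whereas the HB site began 50 bp inside the gene.

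Cdh2, encoding the mesenchymal and neural cadherin N-cadherin, had a promoter site that widened over the first 3 stages, from 700 bp in MES to 1700 bp in HB and then 2200 bp in HE. The HE site exceeded 98.5% of its list in width. In HP and MAC the nearest sites were 63847 and 23213 bp from a TSS.

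Vim, encoding the intermediate filament protein vimentin, had a promoter site at every stage, of 1100, 1800, 2100, 1300 and 1100 bp from MES to MAC. At each stage it was wider than most of the list, from 76.2% in MES to 98.6% in HB. Its HP and MAC sites were also wider than 87.3% and 90.4% of their lists.

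To place these losses and gains, each step was set beside all genes at risk of the same change. From MES to HB, Twist1 was the 1 gene without a MES promoter site and it gained one, as did 8.83% of all genes without one. From HB to HE, 1 of 9 genes (Epcam) had no HE site, against 5.18% of all genes with an HB site. From HE to HP, 5 of 8 genes (Twist1, Zeb1, Zeb2, Cdh1 and Cdh2) had no HP site, against 20.1% of all genes with an HE site. From HP to MAC, 1 of 3 (Snai2) had no MAC site, against 10.6%, and 1 of 6 genes without an HP site (Zeb2) had one in MAC, against 10.7%. Promoter sites in HB with none in either HP or MAC were found for 5 of 9 genes (Twist1, Zeb1, Cdh1, Epcam and Cdh2), against 12.9% of all genes with an HB site. Of the 4 steps, HE to HP took away the most promoter sites of the 9 genes.

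The HE to HP step is also the one at which the list shortens. Over all genes, HE promoters without an HP site had a median summed width of 1300 bp (n = 2598, quartiles 1000 and 1600 bp). Those with an HP site had a median of 1700 bp (n = 10350, quartiles 1500 and 1900 bp). The 5 genes without an HP site had HE widths of 700 bp (Zeb1), 1400 bp (Cdh1), 2000 bp (Twist1), 2200 bp (Cdh2) and 3400 bp (Zeb2). The Twist1 and Zeb2 values add up several sites, of which the widest measured 1700 and 1900 bp. Snai1, Snai2 and Vim, which kept theirs, measured 1800, 1500 and 2100 bp in HE.

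To determine where the remaining sites lie, all sites were set to windows of 500 bp and merged across stages. Of the 80 regions of the 9 genes, 15 were promoter regions and 65 were distal. By their middle, 37 lay in introns, 28 upstream and 11 downstream of the gene, 3 in untranslated exons and 1 in a coding exon. Zeb2 had 21 regions, Cdh1 16, Snai1 10, Zeb1 9, Cdh2 8, Twist1 7, Epcam 5, Vim 3 and Snai2 1. The median of the 9 genes was 8 regions, against 2 for all genes, but the 9 genes also had more room. The stretch in which a site could be assigned to them had a median of 114.8 kb, against 49.0 kb. Per 100 kb the medians were 4.43 and 4.18 regions. Cdh1 (18.6), Snai1 (15.6) and Zeb2 (10.6 regions per 100 kb) were dense, with 93.9%, 90.9% and 81.3% of genes at a lower density. Snai2, with 0.5 per 100 kb, was sparse.

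**Figure D2:**
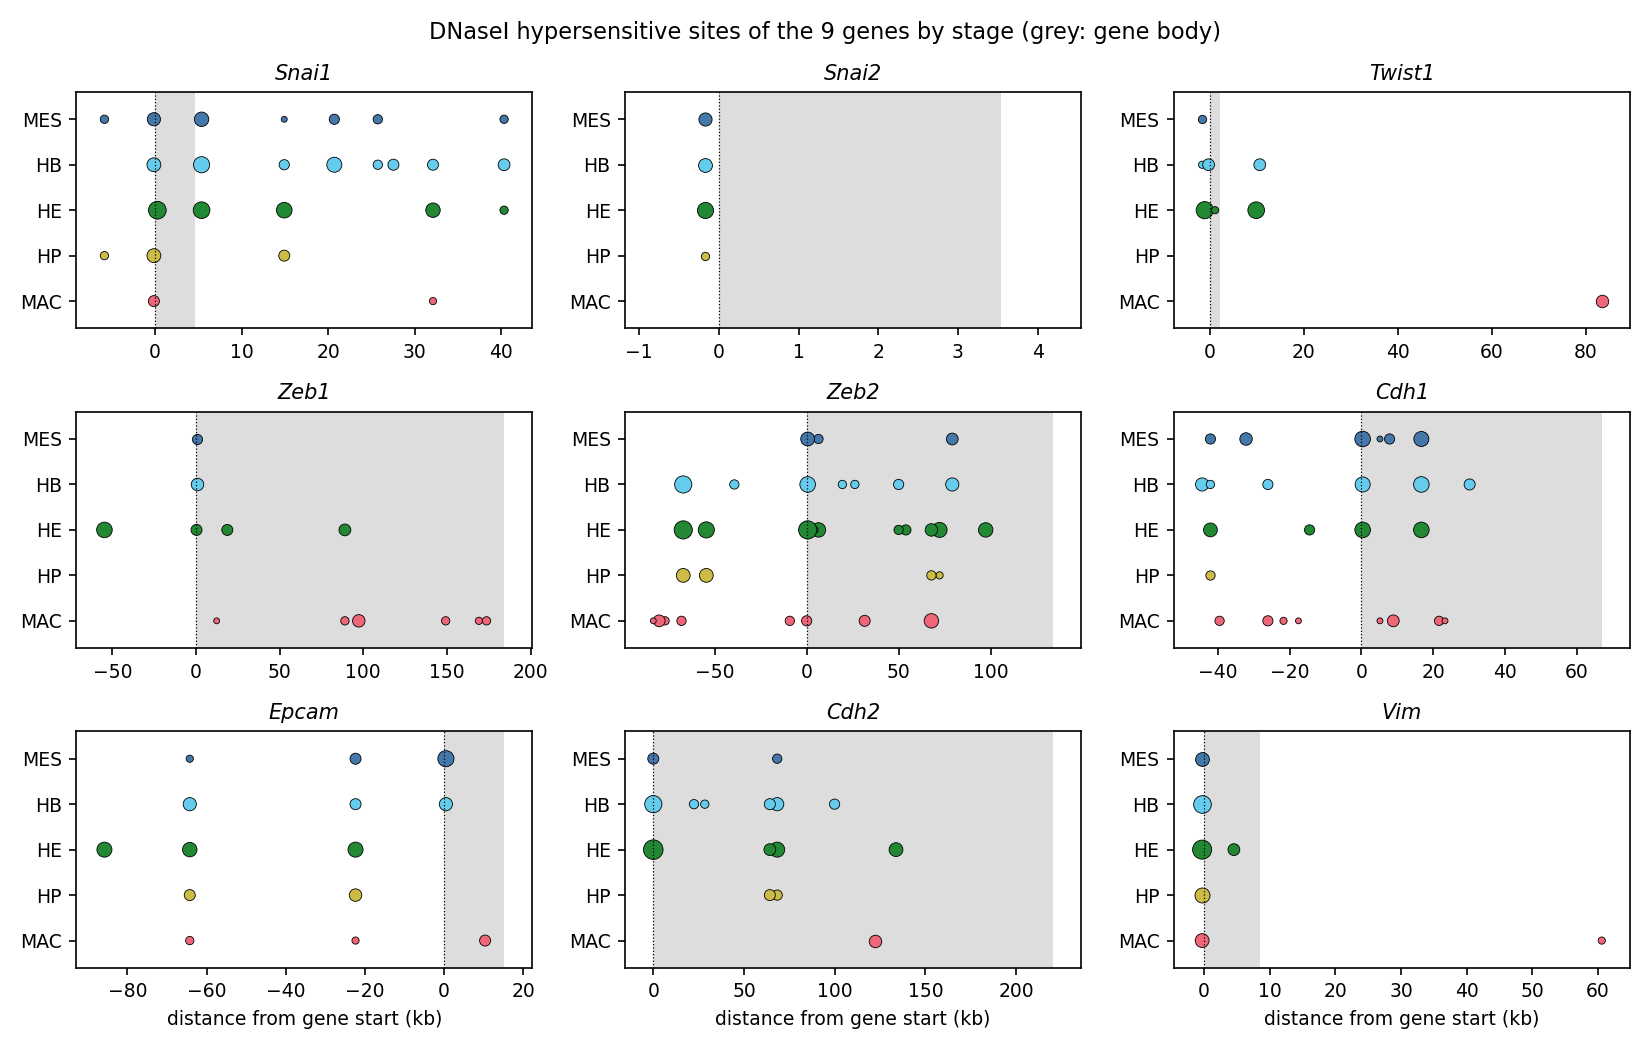
Position of each region of the 9 genes relative to the gene start (x axis, kb, 1 panel a gene, each with its own range) in each stage (rows). The area of a dot is proportional to the width of the site and grey marks the gene body. Zeb1 and Zeb2 show MAC sites in windows of their own, most of them narrow and some beside sites of other stages, and the sites downstream of Snai1 lie mostly in the MES, HB and HE rows.

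The number of sites moved differently in each gene. From MES to MAC, Snai1 had 7, 8, 5, 3 and 2 sites and Cdh2 2, 6, 4, 2 and 1. Both were thus poorest in MAC. Zeb1 had 1, 1, 4, 0 and 6 sites, Zeb2 3, 7, 10, 4 and 8, and Cdh1 6, 6, 4, 1 and 8. Counts in MAC depend on the length of that list. With every list reduced to its widest sites, as many as HP has (a setting applied gene by gene after the data were seen), Zeb1 had 1 site in MES and 1 in MAC. Zeb2 then had 3 in MES and 4 in MAC, and Cdh1 5 in MES and 1 in MAC, the reverse of its order with the full lists. Snai1 and Cdh2 still had their lowest count in MAC, at 1 each. With the full lists, Twist1 had 1, 3, 3, 0 and 1, Epcam 3, 3, 3, 2 and 3, Vim 1, 1, 2, 1 and 2, and Snai2 1 in each stage up to HP. In all, the 9 genes held 25, 36, 36, 14 and 31 sites from MES to MAC, or 0.114%, 0.146%, 0.108%, 0.0789% and 0.0828% of each list.

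Downstream of Snai1, 7 regions formed a chain that reached 40.3 kb. The first, at 5.385 kb and just past the end of the gene, was listed in MES, HB and HE at 1200, 1500 and 1600 bp. Next, a region at 14.9 kb in MES, HB, HE and HP measured 200, 600, 1400 and 700 bp. It lies 0.178 kb from the TSS of the long non-coding RNA gene Gm11476. Regions at 20.7 and 25.7 kb were listed in MES and HB, a region at 27.6 kb in HB, one at 32.1 kb in HB, HE and MAC, and one at 40.3 kb in MES, HB and HE. HP had 1 site in this chain and MAC 1. The HE window of the Snai1 promoter fell too far from those of the other stages to merge, although the listed intervals overlap, so that promoter counts as 2 regions.

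At Zeb2, stage-specific stretches lay on either side of the gene start. HE and HP shared a region at -54.6 kb, of 1500 and 1100 bp, and an intronic region at 72.3 kb, of 1300 and 300 bp. A region at -67.1 kb was listed in HB, HE and HP at 1700, 1900 and 1100 bp. An intronic region at 67.8 kb was listed in HE, HP and MAC. All 4 HP sites of Zeb2 were in these 4 regions, which held no MES site. A further 7 windows held a MAC site only, of which 1 was the promoter window, 5 lay upstream between -9.13 and -83.4 kb, and 1 was intronic at 31.6 kb. The MAC windows at the promoter and at -68.0 kb count as regions of their own, although the first overlaps sites of MES, HB and HE as listed and the second shares 445 bp with the HE site of the -67.1 kb region.

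Central sequences of 300 bases are shown for 3 of these Zeb2 regions, because they stand for a region of HB, HE and HP, a region of HE and HP, and a region of MAC alone. None overlaps an annotated exon. Sequences are from GRCm38.p6 on the plus strand, and capitals mark matches, on either strand, to any of 6 motifs. These were the E2-box as above, AGATAA for factors of the GATA family, TGTGGT for RUNX factors, CATTCC for TEAD factors, GAGGAAG for PU.1 and TGANTCA for AP-1.
Zeb2 region at -67.1 kb, chr2:45184384-45184683, plus strand: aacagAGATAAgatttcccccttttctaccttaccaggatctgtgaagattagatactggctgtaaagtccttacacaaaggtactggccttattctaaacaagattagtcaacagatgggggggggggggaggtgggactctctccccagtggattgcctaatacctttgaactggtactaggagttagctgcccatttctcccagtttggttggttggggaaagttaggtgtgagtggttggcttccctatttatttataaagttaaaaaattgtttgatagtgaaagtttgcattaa
Zeb2 region at -54.6 kb, chr2:45171845-45172144, plus strand: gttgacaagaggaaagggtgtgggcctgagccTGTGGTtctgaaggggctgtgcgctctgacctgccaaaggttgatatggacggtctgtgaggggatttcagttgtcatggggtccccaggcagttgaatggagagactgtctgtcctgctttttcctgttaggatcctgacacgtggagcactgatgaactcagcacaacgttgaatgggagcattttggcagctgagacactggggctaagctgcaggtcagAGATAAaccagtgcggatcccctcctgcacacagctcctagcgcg
Zeb2 intronic region at 31.6 kb, chr2:45085725-45086024, plus strand: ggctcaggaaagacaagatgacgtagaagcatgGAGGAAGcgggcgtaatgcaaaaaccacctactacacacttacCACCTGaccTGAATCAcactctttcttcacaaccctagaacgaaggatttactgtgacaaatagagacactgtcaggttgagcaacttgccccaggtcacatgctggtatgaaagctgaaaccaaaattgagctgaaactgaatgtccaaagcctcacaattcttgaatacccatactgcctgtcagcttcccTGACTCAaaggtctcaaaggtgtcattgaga

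The stretch at -67.1 kb held 1 GATA match. At -54.6 kb there was 1 RUNX and 1 GATA match. The MAC stretch held 1 PU.1, 1 E2-box and 2 AP-1 matches. Over all regions, these letters are common: 23.0% of regions held the GATA letters in their central 500 bp, 33.2% RUNX, 27.0% PU.1 and 22.7% AP-1.

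Zeb1 had no site listed in HP and 6 in MAC, of 200 to 900 bp. Of its 9 regions, 5 were listed in MAC only and all 5 lay in introns, at 12.3, 97.3, 149.2, 169.1 and 173.6 kb from the start. An intronic region at 89.0 kb was shared by HE and MAC. HE alone listed regions at -54.7 and 18.7 kb. The promoter was thus the only Zeb1 region listed in MES or HB.

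Cdh1 had 16 regions, of which 11 belonged to a single stage, 6 of them MAC. An intronic region at 16.7 kb had the same stages as the promoter, MES, HB and HE, and similar widths, 1300, 1400 and 1400 bp. The 1 HP site of the gene, of 500 bp, lay at -42.0 kb in a region that was also listed in MES, HB and HE, at 600, 400 and 1100 bp. MAC sites were spread over both flanks of the promoter, from -39.5 to 23.3 kb, and 2 of the 8 fell in regions of another stage, at 5.16 kb with MES and at -26.0 kb with HB.

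In Cdh2, the distal regions listed in 3 or more stages were intronic. The region at 68.3 kb was listed in MES, HB, HE and HP at 500, 1000, 1300 and 600 bp, and the region at 64.2 kb in HB, HE and HP at 700, 800 and 700 bp. HB alone listed 3 further intronic regions, at 22.4, 28.3 and 99.9 kb. The single MAC site lay at 122.4 kb.

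The 5 regions of Epcam included 2 that were listed in all 5 stages, at -64.2 and -22.4 kb. Their middles lay 0.976 kb from the TSS of Gm46587 and 0.063 kb from that of Gm46609, both long non-coding RNA genes. Of the other regions, -85.8 kb was listed in HE only and 10.4 kb in MAC only. Vim added to its promoter an intronic region at 4.56 kb in HE, of 800 bp, and a MAC region at 60.6 kb. The 7 regions of Twist1 included 6 of a single stage, among them an HE site at 9.90 kb and an HB site at 10.7 kb. The listed intervals of this pair share 440 bp, but their windows did not merge.

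Of the 80 regions, 22 (27.5%, 95% Wilson interval 18.9 to 38.1%) were listed in MAC only, against 31.0% of all 68846 regions, and 13 (16.2%, 9.75 to 25.8%) in HE only, against 17.1%. HB only accounted for 11 regions (13.8%, 7.85 to 23.0%) against 5.65%, and MES, HB and HE together for 7 (8.75%, 4.30 to 17.0%) against 2.68%. In all 5 stages there were 3 regions (3.75%, 1.28 to 10.5%), against 13.2%. No region was listed in HP only. A single stage held 48 regions (60%, 49.0 to 70.0%), against 60.2%. The listed intervals of 7 of these 48 overlap one of another stage, although their windows did not merge. They are 3 HE regions, 2 HB regions and 2 MAC regions, from Twist1, Snai1 and Zeb2. The intervals cover counting error only and treat regions as independent, which neighbouring regions of a gene need not be.

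**Figure D3:**
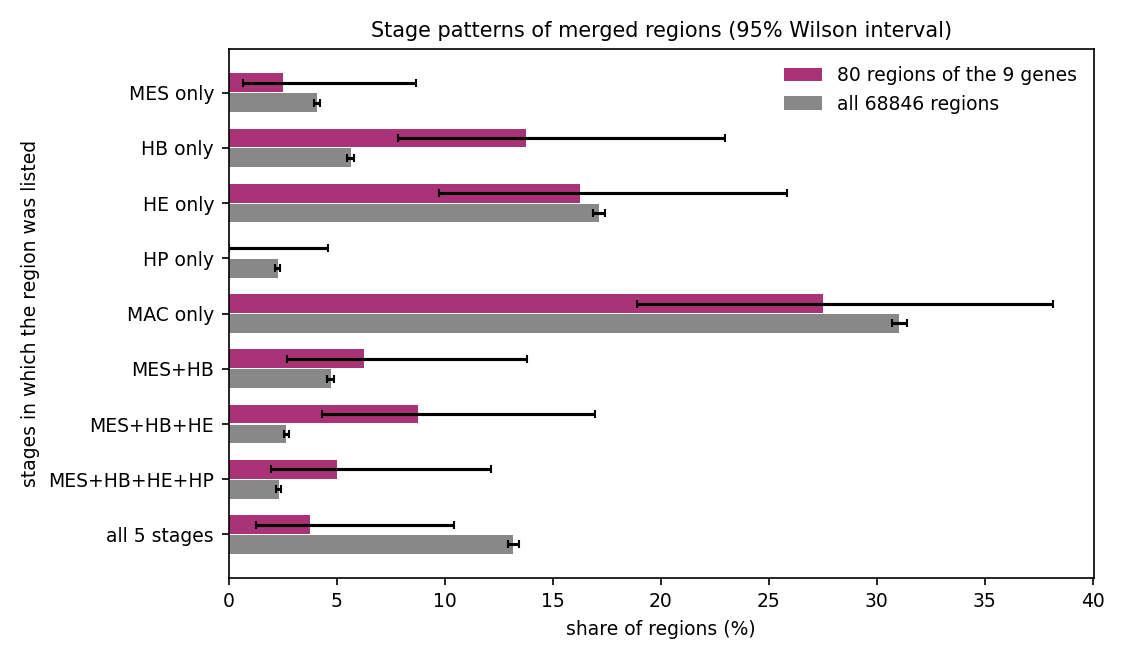
Share in % of the 80 regions of the 9 genes and of all 68846 regions with each stage pattern (rows), with 95% Wilson intervals. Other stage combinations, with 1 or 2 regions of the 9 genes each, are not drawn. The share of regions listed in all 5 stages is 3.75% against 13.2%, and of regions listed in HB only 13.8% against 5.65%.

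The lower share of regions listed in all 5 stages was seen among promoter regions. Among promoter regions, 1 of 15 of the 9 genes (6.67%, 1.19 to 29.8%) was listed in all 5 stages, against 44.5% of 17036 promoter regions overall. The Snai1 promoter is not counted here, since its HE window did not merge with the rest. Twist1 and Zeb2 also enter with several promoter regions each. With deposited intervals merged the share was 2 of 12, against 53.4%, and by gene it was 2 of 9, against 43.4%. Among distal regions the shares were 2 of 65 (3.08%, 0.848 to 10.5%) and 2.85%. Distal regions of HB only made up 10 of 65 (15.4%, 8.58 to 26.1%), against 6.60%, and came from Cdh2 (3), Zeb2 (3), Cdh1 (2), Snai1 (1) and Twist1 (1). The Twist1 site is the one at 10.7 kb, whose listed interval overlaps an HE site. Apart from a Cdh1 site of 1000 bp, these HB sites measured 400 to 800 bp, below the HB median of 900 bp. Their share was not recomputed with only the wider sites of each list.

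From one stage to the next, the regions of the 9 genes were kept at 20 of 25 (80%, 60.9 to 91.1%) from MES to HB, against 81.5% overall. From HB to HE 18 of 36 were kept (50%, 34.5 to 65.5%), against 63.7%, and from HE to HP 12 of 36 (33.3%, 20.2 to 49.7%), against 42.9%. From HP to MAC 5 of 14 were kept (35.7%, 16.3 to 61.2%), against 66.2%. The last interval lies below the share of all regions and the other 3 contain it. The HP regions of the 9 genes were mostly distal (11 of 14, against 7734 of 17734 overall). Within each kind the share kept was also below the general one, on 3 and 11 regions, with wide intervals that contain it. The part of the mix of kinds was not tested. Newly listed regions numbered 16, 18, 2 and 26 at the successive steps, beside 6843, 17562, 3462 and 25706 over all regions. By kind, promoter regions of the 9 genes were kept from HE to HP at 2 of 11 (18.2%, 5.14 to 47.7%), against 69.1% of all promoter regions. The split Snai1 promoter counts here as lost, although both stages list a site over its TSS. Of the distal regions 10 of 25 were kept (40%, 23.4 to 59.3%), an interval that contains the share of all distal regions, 26.2%. From HP to MAC promoter regions were kept at 2 of 3 (66.7%, 20.8 to 93.9%), against 84.3%, and distal regions at 3 of 11 (27.3%, 9.75 to 56.6%), against 42.8%.

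**Figure D4:**
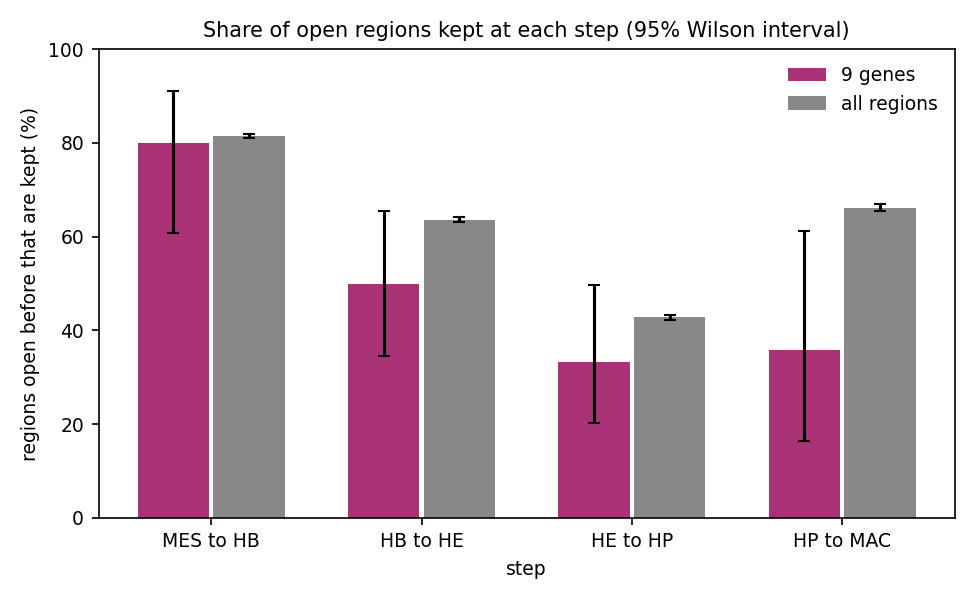
Share in % of the regions listed in a stage that were also listed in the next, for the 9 genes and for all regions, with 95% Wilson intervals. For the 9 genes the share falls from 80% at the first step to 33.3% from HE to HP and 35.7% from HP to MAC, where all regions stand at 66.2%.

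The 6 motifs were counted on either strand within the middle 500 bp of each region. The E2-box was found in 28.7% (20 to 39.5%) of the 80 regions and in 27.9% of the 68842 regions outside the mitochondrial chromosome. GATA letters stood at 25% against 23.0%, TEAD at 30% against 26.7%, PU.1 at 25% against 27.0% and AP-1 at 26.2% against 22.7%. RUNX letters were found in 20% (12.7 to 30%) against 33.2%. Matches to different motifs overlapped in 1 of the 80 regions.

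The other genes of the switch were compared through 4 lists. Of 18 epithelial adhesion and keratin genes, promoter sites from MES to MAC were listed for 15, 12, 11, 3 and 1. Their MAC share was thus far below that of all genes, and Jup was the gene listed at that stage. By number of sites the list was led by Cdh3, which encodes P-cadherin and neighbours Cdh1 (17 sites over the 5 stages), the keratin gene Krt8 (16), St14, a membrane protease gene (16), and the claudin gene Cldn4 (14). Cdh3 had the same promoter stages as Cdh1, and Cldn4 and St14 the same as Epcam.

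Of 18 mesenchymal adhesion, matrix and cytoskeleton genes, 12, 12, 16, 8 and 6 had a promoter site in the successive stages. Sparc, a matrix protein gene (21 sites), had promoter sites in MES, HB and HE, as Cdh2 did. The integrin gene Itgb1 (20) had one in every stage, as Vim did. Cdh5 (18 sites), encoding the endothelial cadherin, had one in HE only, and Cdh11 (17) lacked one in MAC. Of the fibroblast collagen genes in the list, Col1a2 had promoter sites in MES, HB and HE and Col3a1 had none at any stage.

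Of 17 other transcription factors and repressors of the switch, the counts were 14, 13, 17, 8 and 7. Over all genes the shares were 57.2%, 58.9%, 61.7%, 50.1% and 50.2%. The E-protein gene Tcf4 (27 sites) and the genes of the Id inhibitors of basic helix-loop-helix factors, Id3 (26), Id2 (23) and Id1 (15), had one in every stage. Of 12 genes of transforming growth factor beta (TGF-beta) signalling, a pathway that induces Snail and Zeb genes, 11 had a promoter site in MES, HB and HE each and 10 in HP and MAC each. Smad7 (43 sites), an inhibitor of the pathway, the corepressor gene Ski (36) and the signal transducer genes Smad3 (32) and Smad2 (20) had one in every stage. Tgfb1 had no promoter site at any stage, although 1 site beyond the 1 kb reach was assigned to it in every stage. Tgfb2 had no promoter site in MAC and Tgfb3 none in HP. Keeping a promoter site is the general case, since 20.1% of all genes with one in HE had none in HP.

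**Figure D5:**
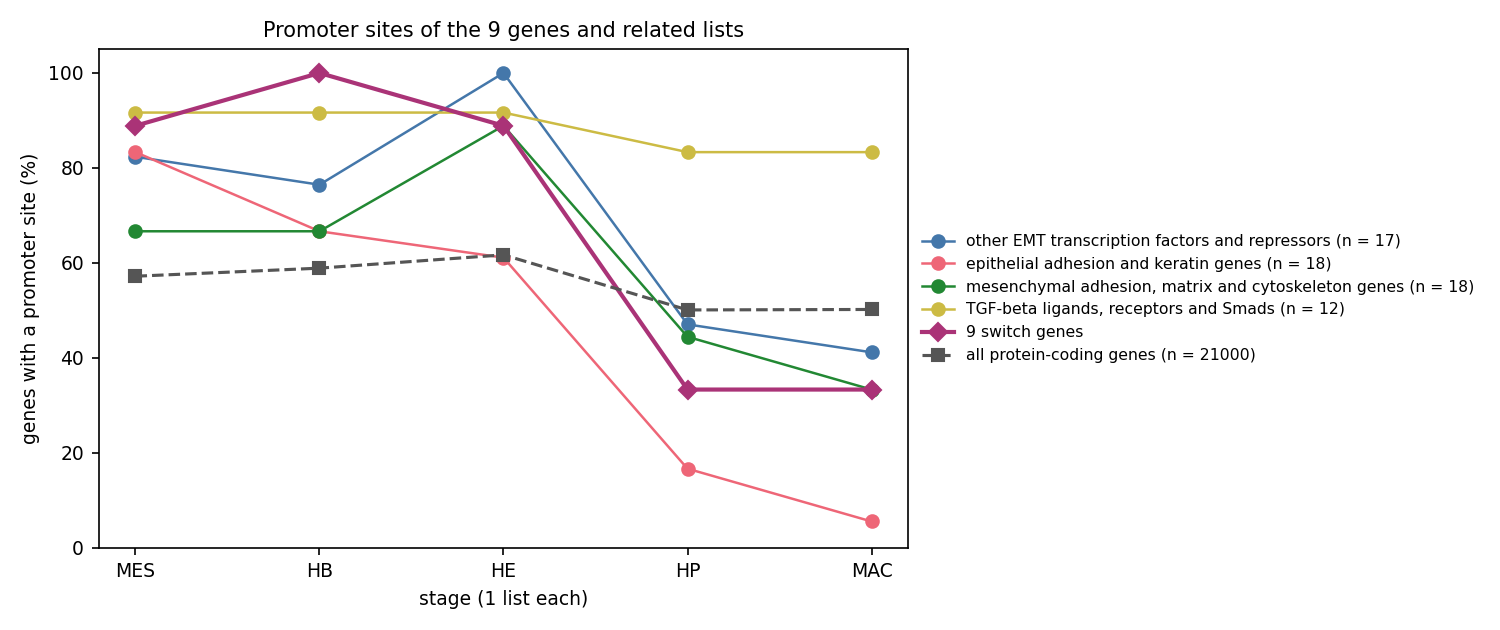
Share in % of genes with a promoter site (y axis) in each stage (x axis) for the 9 genes, the 4 related lists and all 21000 protein-coding genes. The epithelial list falls from 15 of 18 genes in MES to 1 of 18 in MAC, the TGF-beta list stays at 10 or 11 of 12, and the 9 genes fall to 3 in HP and MAC.

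MicroRNAs of the miR-200 family repress Zeb1 and Zeb2 and are repressed by them in turn. Their mature sequences from RefSeq are shown with the seed, bases 2 to 8, in capitals, since the seed pairs with the Zeb transcripts and divides the family into a pair with seed AACACUG and a trio with AAUACUG.
mmu-miR-141-3p: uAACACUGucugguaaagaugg
mmu-miR-200a-3p: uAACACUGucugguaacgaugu
mmu-miR-200b-3p: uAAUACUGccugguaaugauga
mmu-miR-200c-3p: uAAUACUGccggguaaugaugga
mmu-miR-429-3p: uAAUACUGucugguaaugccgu

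The cluster of miR-200b, miR-200a and miR-429 (chr4:156053905-156055750, minus strand) had a site within 5 kb in MES, at 3768 bp, and in HB, at 3866 bp. In HE, HP and MAC the nearest sites were 20858, 21665 and 39181 bp away. MES and HB were also the stages with an Epcam promoter site. The cluster of miR-200c and miR-141 (chr6:124717914-124718390, minus strand) had its nearest site at 4877 bp in HE and at 5156 to 5288 bp in the other stages, which straddles the limit of 5 kb and does not separate the stages.

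The genes most like the members in number of sites were found by the sum of absolute differences over the 5 stages, for members with at least 10 regions. Hes1, a Notch target gene, with 5, 8, 5, 3 and 3 sites and Il17rd, with 6, 7, 4, 3 and 2, were each 3 sites away from Snai1, a value that 3 genes shared. Nearest to Zeb2 were Csrp1, at a difference of 2, and Ctbp2, which encodes a corepressor, at 3. Nearest to Cdh1 were Agps and the cyclin gene Ccnd1, both at 3, which 3 genes shared. These likenesses rest on 5 counts a gene.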

How the data were processed

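DNaseI-seq of 5 sorted stages was analysed, 1 list each. After trimming with CutAdapt, the authors mapped reads to mm10 with Bowtie, discarded multiply placed reads and duplicates (Picard), and ran DFilter with a bin size of 100 bp. HOMER is also named in the submitters' processing notes, and no version was given in the sources used here. The deposited lists used here give each site as positions in bp, without counts or signal, so the depth behind a site is unknown.

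TSSs came from RefSeq on GRCm38.p6. Promoter sites were measured to every annotated TSS of a gene, predicted transcripts included, and the nearest gene was found from the 25999 TSS positions of curated mRNAs of 21000 genes. Windows of 500 bp around interval middles were merged where they shared 125 bp or more. Stages were compared by counts and shares with 95% Wilson intervals, with no test, in Python 3.11.15 with pandas, scipy and pysam. Assignment and merging were tested on simulated data. The 9 genes, the lists, the motifs and the rule for named genes (all 9 members, the 4 genes with most sites per list, the 2 nearest by site numbers) were chosen with earlier results of these data known. Jup, Col1a2, Col3a1, Tgfb1, Tgfb2 and Tgfb3 fall outside this rule and were named after their values were seen.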

Additional observations from a re-analysis of the deposited data

How the results depend on the processing

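The number of the 9 genes with a promoter site stayed within 1.5 times at each stage with a reach of 2 kb or 100 bp, with promoter sites measured to curated mRNA starts only, and with only the wider sites of each list. Under these, 0 to 4 of the 9 genes changed their promoter stages, and Twist1 gained MES at 2 kb and lost HE at 100 bp. Of 65 alternative values, 45 stayed within 1.5 times and 20 moved. When sites narrower than the median of their list were dropped, the 9 genes had 10, 16, 22, 5 and 12 sites from MES to MAC and 39 regions, of which 1 was listed in all 5 stages and 10 in MAC only. When every list was shortened by width to as many sites as HP has, there were 23 sites in HB, 22 in HE and 11 in MAC, and 48 regions, of which 1 was in all 5 stages, 8 in MAC only and 6 in HE only. With the nearest gene of any type in place of protein-coding genes, sites from MES to MAC were 16, 22, 21, 6 and 16. These alternatives hold fewer sites by construction. A limit of 50 kb moved none of the site counts per stage, the total of regions or the regions in all 5 stages, MAC only and HE only by over 1.5 times, and the other patterns and kept shares were not recomputed for it. Both other ways of merging, by 250 bp of shared window or by any overlap of the deposited intervals, were also applied, after the data were seen, to the shares of HB only, of MES, HB and HE, of a single stage and of regions kept. With 250 bp the regions of MES, HB and HE together fell from 8.75% to 5.75% (5 of 87, 2.48 to 12.8%), against 2.35% of all regions. With deposited intervals, 2 of 12 promoter regions (16.7%, 4.70 to 44.8%) were in all 5 stages, against 53.4%, and none was of HB only. HB only then held 9 of 74 regions (12.2%, against 5.32%), and 6 of 14 were kept from HP to MAC (42.9%, 21.4 to 67.4%, against 68.2%). No paired analysis was possible because each stage is 1 list. The lists hold no counts, so the depth that limits a missing site cannot be given.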
